A study of Arabidopsis thaliana with 14 samples.

Results

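The levels of transcripts in slr-1 roots were set directly against those in Col-0 roots after 2 h of auxin, array against array at the same time point, without subtracting the levels that each genotype had before auxin. Col-0 is the wild type. The mutant slr-1 carries an altered allele of the Aux/IAA gene SLR/IAA14 and is defective in lateral roots. Seedlings of both genotypes germinated on 10 µM NPA, which blocks auxin transport, and at 3 days were moved to 10 µM NAA, a synthetic auxin, so every group compared had been on NPA. Each group had 2 biological replicates on Affymetrix ATH1 arrays, and each RNA sample came from the root segment lying above the meristem and below the hypocotyl, from about 1500 pooled seedlings per time point. The same genotypes at 0 h, before NAA, and at 6 h of NAA are used for comparison, and their arrays, with those of mock-treated Col-0 at 6 h, also entered the estimate of the spread behind every call at 2 h. No mock-treated arrays at 2 h were analysed here, so the values describe the genotypes under NAA and do not separate NAA from the transfer. Of 22746 probe sets without controls, 13505 had a MAS5.0 signal above a limit on both arrays of Col-0 or on both arrays of slr-1 at 2 h, and these are the probe sets described. The limit is the pooled 40th percentile of all signals, 218.1, without its decimal. Both groups passed for 12303 of them, Col-0 alone for 645 and slr-1 alone for 557. The 5 lowest values just inside the limit were 218.2 to 218.3, and the 5 highest just outside reached from 217.8 up to the limit.

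Auxin acts on transcription by promoting the destruction of Aux/IAA proteins, which otherwise hold auxin response factors (ARFs) inactive. The slr-1 mutation makes the IAA14 protein resistant to that destruction, so ARF targets in the tissues that hold the protein stay repressed in the presence of auxin. In the root, release of this repression in pericycle cells next to the xylem starts the divisions that found a lateral root, and the transcription factors LBD16 and LBD29 are known direct ARF targets in that step.

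The arrays of the comparison resembled each other in scale. The trimmed mean signal was 1000.1 on every array, and replicate correlations across the 13505 probe sets, which are not independent of one another, were 0.978 for Col-0 and 0.975 for slr-1 at 2 h. Replicates differed by more than 2-fold for 164 probe sets in Col-0 and for 216 in slr-1. The ratio of the 3' to the 5' GAPDH probe sets, a sign of RNA quality, was 0.546 to 0.666 on these arrays. Of the arrays at other times, replicate 2 of slr-1 at 0 h stood apart with a ratio of 1.16, so part of the results at 0 h are also given without it. Its part in them was not tested. Replicate 2 of slr-1 at 6 h stood apart in its highest signal, 29350, against 58837 or more on every other array. That array entered the values at 6 h and the estimate of the spread behind every call. PYK10, a beta-glucosidase that marks root tissue, had signals of 39274 and 40343 in Col-0 and 41968 and 47337 in slr-1 at 2 h. The log2 difference was 0.16 (SE 0.36, adjusted p = 0.865 by limma). At 6 h its slr-1 signals were 49012 and 18461 on replicates 1 and 2. No probe set was named for IAA14 or for any of the stele and root cap markers in the list of cell type markers, so neither the mutated gene nor those tissues could be checked by name. Of the 13505 probe sets, 7238 were paired with 1 gene in the annotation table, 274 with several and 5993 with none.

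After 2 h of NAA, 931 of the 13505 probe sets (6.89%) differed between the genotypes at an adjusted p under 0.05. Of these, 394 (2.92%) were higher in slr-1 and 537 (3.98%) were lower. At least 2-fold differences were found for 216 higher (1.6%) and 281 lower (2.08%) probe sets. The median log2 difference, slr-1 minus Col-0, was 1.06 among the higher and -1.02 among the lower ones, against 0.007 over all 13505, with a median SE of 0.206. On the log2 scale 424 of the called differences had a size of 0.5 to 1, 14 of 3 to 4, and 5 exceeded 4. For probe sets that pass the signal limit in 1 genotype alone the filter largely fixed the direction. All 80 called (12.4%) of the 645 that passed only in Col-0 were lower in slr-1. All 62 called (11.1%) of the 557 that passed only in slr-1 were higher. Of the 7238 with 1 gene 420 were called (5.8%), and of the 5993 with no gene 506 were (8.44%). The plot of difference against signal shows that called differences were found over the whole range of signals.

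**Figure D1:**
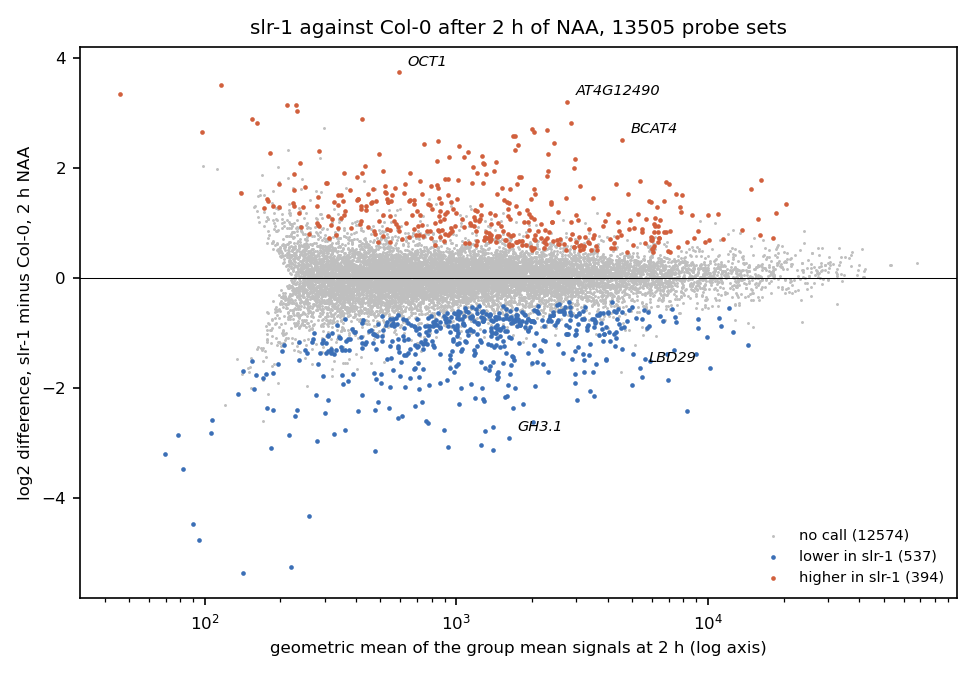
Difference between slr-1 and Col-0 after 2 h of NAA (log2, y axis) against the geometric mean of the group mean MAS5.0 signals (log x axis), 1 point per probe set. Blue points were lower in slr-1 (537), orange points higher (394) and grey points not called (12574).

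The number of calls rests on all 4 arrays. Without replicate 1 of Col-0 it was 294, without replicate 2 of Col-0 551, without replicate 1 of slr-1 518 and without replicate 2 of slr-1 359, and no probe set was called in the opposite direction in any of these fits. Of 67 genes named by rule and called, 25 kept their call whichever of the 4 arrays was left out, and all 67 kept their direction. Wherever the call of a gene ended without 1 of these 4 arrays, that array and its adjusted p are given beside its difference at 2 h. AT1G21060 and AT3G13610 are named below without that difference. The call of AT1G21060 ended without replicate 1 of Col-0 or replicate 2 of slr-1. That of AT3G13610 ended without replicate 1 of Col-0 or either replicate of slr-1. PUCHI, IAA30, UPB1, AT1G21060, AT4G26010, AT1G30870, AT1G67750 and AT5G59240 passed the signal limit through Col-0 alone. OCT1, AT5G44400, AT2G28780, RALFL27 and AT3G43630 passed it through slr-1 alone. For all of these the direction of the difference was largely fixed by the filter, and the separation is a description. Arrays that do not overlap are common. Both slr-1 arrays lay above both Col-0 arrays for 3780 (28%) of the 13505 probe sets and below them for 3714 (27.5%). All fold changes are on the scale of log2(signal + 18.9), which shrinks differences of probe sets with low signals.

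The 3 measured regulators of lateral root founding, LBD16, LBD29 and PUCHI, were all lower in slr-1, by 3.14- to 3.6-fold. LBD16 (AT2G42430), a LOB-domain transcription factor, had signals of 6263 and 5485 on the Col-0 arrays and 1811 and 1746 on the slr-1 arrays. The slr-1 replicates lay close together and far below Col-0, a log2 difference of -1.71 (SE 0.17, adjusted p = 1.06e-04). PUCHI (AT5G18560), an AP2/ERF transcription factor that acts in the early divisions of the primordium, had 942 and 876 in Col-0 and 170 and 332 in slr-1. It passed the signal limit through Col-0 alone, which largely fixed the direction, and its slr-1 replicates differed from each other. The difference was -1.85 (SE 0.29, adjusted p = 0.00187). LBD29 (AT3G58190), the close relative of LBD16, had 10342 and 8655 in Col-0 and 2583 and 3486 in slr-1, a difference of -1.65 (SE 0.40, adjusted p = 0.0245). Its groups were also apart, but its call ended whichever 1 of the 4 arrays was left out, with an adjusted p of 0.179 and 0.0781 without replicates 1 and 2 of Col-0 and 0.155 and 0.0756 without replicates 1 and 2 of slr-1. It also ended with 1 in place of 18.9 added to the signal (adjusted p = 0.0668) and without a variance trend (0.0644).

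None of the 3 was lower in slr-1 before auxin. At 0 h the log2 differences were 0.44 for LBD16 (adjusted p = 0.116), 0.88 for PUCHI (0.0605) and 1.49 for LBD29 (0.0267), so LBD29 was called higher in the mutant at the start. That call of LBD29 ended without replicate 2 of slr-1 at 0 h (1.48, adjusted p = 0.104). The change of the difference between 0 h and 2 h was -2.15 for LBD16 (adjusted p = 7.34e-04), -2.73 for PUCHI (0.00401) and -3.14 for LBD29 (0.00947). At 6 h the deficit in slr-1 was -2.79 for LBD16 (adjusted p = 1.89e-07), -5.15 for PUCHI (8.57e-08) and -2.50 for LBD29 (3.56e-04).

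**Figure D2:**
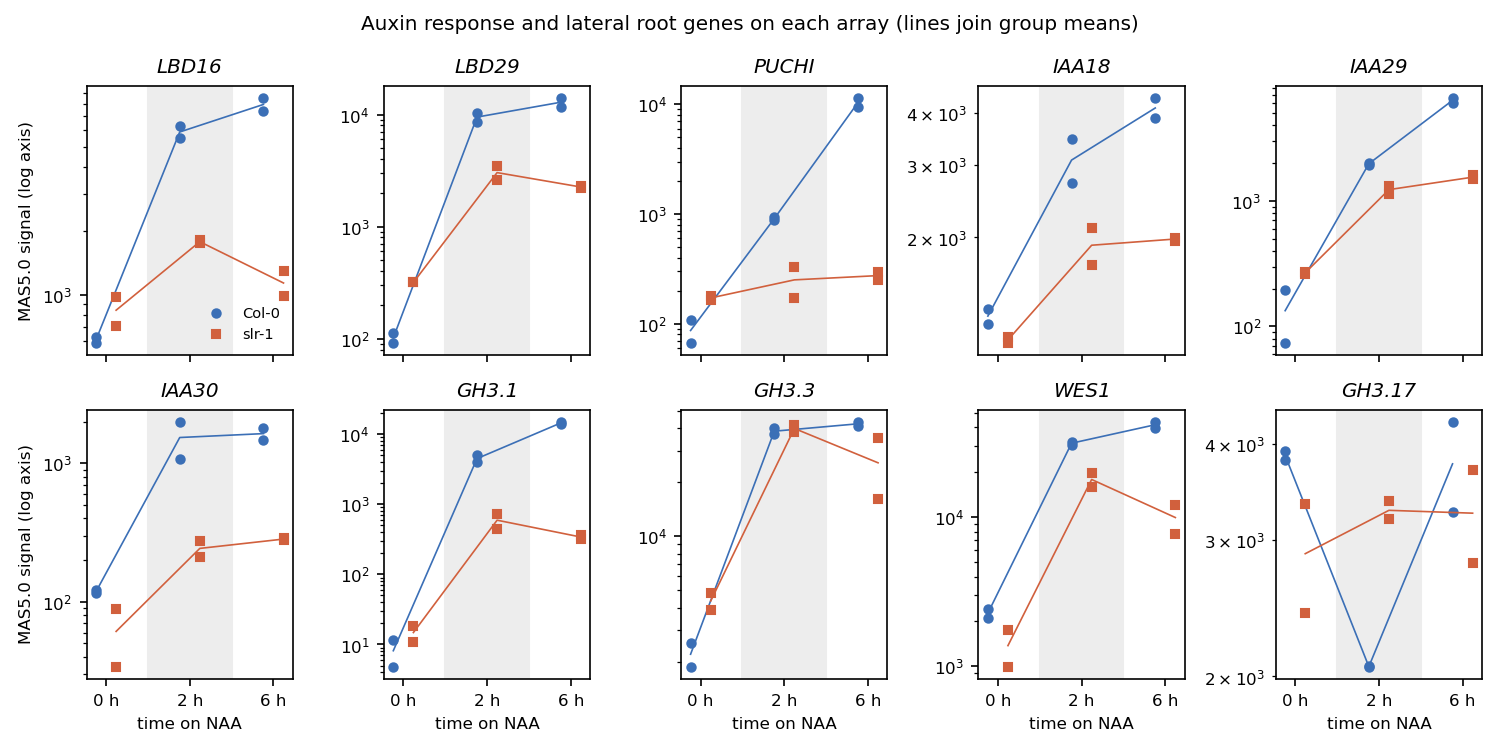
MAS5.0 signals (log y axes, scaled per panel) of lateral root regulators, Aux/IAA genes and GH3 genes on every Col-0 (blue circles) and slr-1 (orange squares) array at 0, 2 and 6 h of NAA, with lines joining group means and the 2 h comparison shaded. At 2 h the genotypes are apart for LBD16, PUCHI and GH3.1 and overlap for GH3.3.

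The Aux/IAA and GH3 families are classic early auxin targets: the former encode the repressors themselves and the latter enzymes that join auxin to amino acids. Of 7 Aux/IAA genes with a probe set, 3 passed the signal limit. Of these, 2 (66.7%) were lower in slr-1 with none higher (median difference -0.68), against 6.89% called over all 13505 probe sets. IAA30 (AT3G62100) had 1991 and 1082 in Col-0 and 277 and 209 in slr-1, a difference of -2.52 (SE 0.49, adjusted p = 0.0076). Its Col-0 replicates were spread, and the call ended without replicate 1 of Col-0 (adjusted p = 0.114) or replicate 2 of slr-1 (0.0706). IAA18 (AT1G51950) had 3452 and 2703 in Col-0 against 1721 and 2111 in slr-1, a difference of -0.68 (SE 0.17, adjusted p = 0.0325) that was not called without replicate 1 of Col-0 (0.304), replicate 1 of slr-1 (0.225) or replicate 2 of slr-1 (0.0638), without a variance trend (0.0693) or with only the arrays at 2 h (0.0621). IAA29 (AT4G32280), at 2010 and 1951 in Col-0 and 1145 and 1317 in slr-1, did not pass (-0.68, SE 0.28, adjusted p = 0.191). Its arrays did not overlap, but both slr-1 arrays lay below both Col-0 arrays for 27.5% of the 13505 probe sets. IAA29 passed with only the arrays at 2 h (0.0348) and without replicate 1 (0.0196) or 2 (0.0213) of Col-0 at 0 h.

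The 4 measured GH3 genes differed among themselves. GH3.1 (AT2G14960) was 7.52-fold lower in slr-1, with 4965 and 3972 in Col-0 and 448 and 735 in slr-1 (log2 difference -2.91, SE 0.43, adjusted p = 0.0012). Both slr-1 arrays lay far below both Col-0 arrays, and the call held whichever 1 of the 4 arrays was left out. GH3.3 (AT2G23170) had 39917 and 37075 in Col-0 and 38030 and 41713 in slr-1, so its groups overlapped (0.05, SE 0.28, adjusted p = 0.952). WES1 (AT4G27260, GH3.5) had 31993 and 30670 in Col-0 and 15970 and 19824 in slr-1, a difference of -0.82 (SE 0.27) that did not pass (adjusted p = 0.0974). GH3.17 (AT1G28130) lay the other way, with 2061 and 2058 in Col-0 and 3191 and 3368 in slr-1 (0.67, SE 0.19, adjusted p = 0.0527). The median of the 4 was -0.38, and 1 was called (25%, against 6.89% over all 13505 probe sets). Both WES1 and GH3.17 lay near the threshold: of 24 alternative settings, WES1 passed in 4 (adjusted p = 0.0321 with quantile normalization, 0.0169 with only the arrays at 2 h, 0.0474 and 0.0476 without replicates 1 and 2 of slr-1 at 0 h) and GH3.17 in 12 (lowest adjusted p = 0.0242). Of YUC2, YUC6 and ILR3, matched by symbol to a list of auxin synthesis and turnover, limma called 0. At an unadjusted p under 0.05 there was 1. The match of ILR3 rests on its symbol alone, and the gene encodes a transcription factor, not an auxin enzyme.

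Among the largest deficits in slr-1, several were reached at 2 h from levels that had not differed at 0 h. GH9B13 (AT4G02290), a family 9 glycosyl hydrolase of the type that trims cell wall glucans, had 2221 and 2562 in Col-0 and 369 and 304 in slr-1 (-2.76, SE 0.31, adjusted p = 1.93e-04). AT5G55050 had 1689 and 2134 against 266 and 330 (-2.60, SE 0.21, adjusted p = 3.27e-05), and AT5G04980 had 2577 and 2070 against 497 and 416 (-2.30, SE 0.19, adjusted p = 3.27e-05). In each the replicates agreed within 1.5-fold while the genotypes were about 5- to 7-fold apart. At 0 h the differences were 0.58 for GH9B13 (adjusted p = 0.244), -0.24 for AT5G55050 (0.5) and -0.02 for AT5G04980 (0.961), and the change from 0 h to 2 h passed for all of them (0.00197, 0.00169 and 0.00119). AT4G37290 had 3839 and 3436 in Col-0 against 521 and 343 in slr-1 (-3.05, SE 0.53, adjusted p = 0.00377), and its change since 0 h did not pass (-2.81, adjusted p = 0.06). Without replicate 2 of slr-1 at 0 h that change was -3.66 and passed. UPB1 (AT2G47270), the bHLH factor UPBEAT1 that regulates peroxidase genes at the border of division and elongation, had 1234 and 509 in Col-0 and 57.5 and 123 in slr-1 (-2.96, SE 0.47, adjusted p = 0.00215). Its slr-1 signals lay under the signal limit, so the size of that difference is uncertain. Its direction was largely fixed by passing through Col-0 alone. At 0 h UPB1 differed by -1.09 (adjusted p = 0.15), and its change since 0 h did not pass (-1.88, adjusted p = 0.158).

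Pectate lyases cut the pectin that glues neighbouring cell walls. Of 9 measured genes of this family, 2 (22.2%) were lower in slr-1 and none was higher, against 6.89% called over all 13505 probe sets. The median was -0.06, and the other 7 did not pass. AT1G04680 had 2915 and 3784 in Col-0 against 773 and 682 in slr-1 (-2.16, SE 0.19, adjusted p = 4.22e-05). It had been higher in slr-1 at 0 h (0.84, adjusted p = 0.0119) and was lower by -4.12 at 6 h (adjusted p = 1.81e-08), so the sign of the difference turned between 0 h and 2 h. AT1G67750 turned in the same way, from 2.56 at 0 h (adjusted p = 0.00134) to -1.79 at 2 h (SE 0.40, adjusted p = 0.0169), with 1042 and 1139 in Col-0 and 190 and 471 in slr-1. Its call at 2 h ended without replicate 1 (0.104) or 2 (0.0938) of Col-0 or replicate 1 of slr-1 (0.159). Of other wall-loosening families, 1 of 8 expansins, EXPA20 (12.5%), and 1 of 3 xyloglucan enzymes, XTH18 (33.3%), were lower. None was called higher, and the share called over all 13505 probe sets was 6.89%. Most expansins lay the other way, with 6 of the 8 above 0 and a median of 0.41. The xyloglucan enzymes had a median of -0.08, and 1 of them lay above 0, at 1.76. That enzyme was called higher with 100 added to the signal and with only the arrays at 2 h. EXPA20 differed by -1.37 (SE 0.34, adjusted p = 0.0265), which ended without replicate 1 (0.113) or 2 (0.16) of Col-0 or replicate 1 of slr-1 (0.206), or without a variance trend (0.0532). XTH18 differed by -1.30 (SE 0.30, adjusted p = 0.0208), which ended whichever 1 of the 4 arrays was left out (0.0713 and 0.168 without replicates 1 and 2 of Col-0, 0.0883 and 0.118 without those of slr-1).

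**Figure D3:**
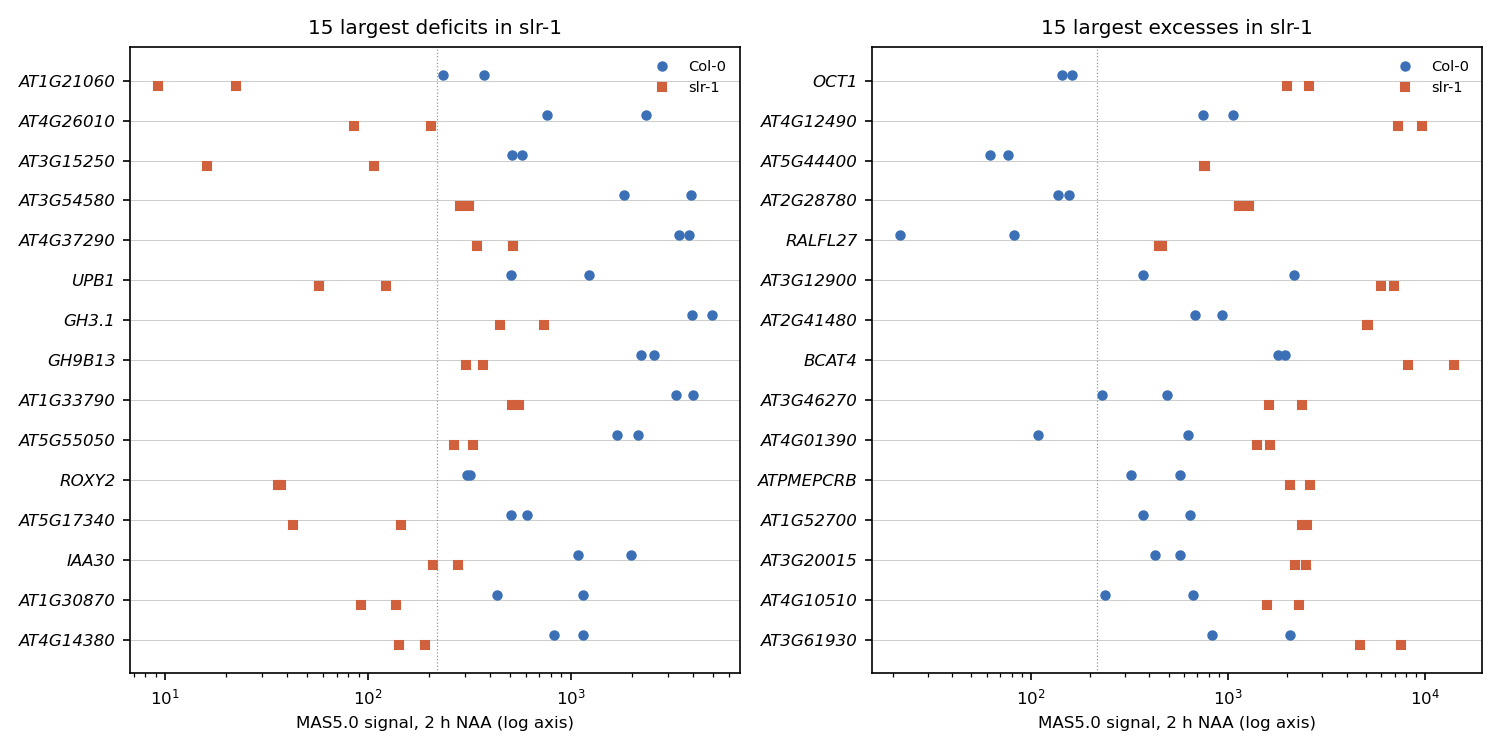
MAS5.0 signals at 2 h of NAA (log x axes) on both Col-0 arrays (blue circles) and both slr-1 arrays (orange squares) for the 15 named genes furthest below Col-0 in slr-1 (left) and the 15 furthest above (right), chosen among called genes whose arrays do not overlap. The dotted line is the signal limit.

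Genes of root hairs formed the group with the lowest median. Of 8 measured genes of a root hair list, which was put together after the largest differences had been seen and is therefore no independent evidence, 6 were lower in slr-1 and none was higher, with a median of -2.05. Of the 8, 3 (AT4G26010 and AT1G30870 among them) passed the signal limit through Col-0 alone and were all called, so their direction was largely fixed by the filter. Of the 5 that passed in both genotypes, 3 were called. The share called was 75% of the 8, against 6.89% over all 13505 probe sets. AT3G54580, an extensin (a structural wall protein rich in hydroxyproline), had 3906 and 1820 in Col-0 and 285 and 317 in slr-1 (-3.07, SE 0.48, adjusted p = 0.00198). HRGP1 (AT3G54590), its neighbour of the same family, had 9082 and 4294 against 1681 and 1034 (-2.23, SE 0.40, adjusted p = 0.00499). Its probe set is of a type that can bind related transcripts, so the signals of these extensins may not be fully separate. AT4G26010, a class III peroxidase, had 2360 and 760 against 205 and 84.9 (-3.16, SE 0.62, adjusted p = 0.00858). In all 3 genes replicate 1 of Col-0 was about 2-fold or more above replicate 2. Without replicate 1 of Col-0 or replicate 2 of slr-1 the calls ended for HRGP1 (0.0789 and 0.066) and for AT4G26010 (0.121 and 0.0924), while that of AT3G54580 held.

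The root hair genes did not differ only under auxin. At 0 h, 6 of the same 8 were lower in slr-1 with a median of -2.15, and at 6 h the median was -1.76. At 0 h, 3 were called lower without replicate 2 of slr-1 (median -1.88). AT3G54580 differed by -3.07 at 0 h (adjusted p = 0.00136) and by -3.10 at 6 h (3.00e-04). Summed over the 12 genes of the list with a probe set, the signal at 2 h was 32007 and 14509 on replicates 1 and 2 of Col-0 and 9947 and 5816 on those of slr-1. The defining hair markers EXPA7 (440 and 193 in Col-0, 90.1 and 26.2 in slr-1) and GH9C1 (606 and 195 in Col-0, 13.5 and 112 in slr-1) lay the same way without passing the signal limit on both arrays of a group. The number of root hair genes called fell to 1 without replicate 1 of Col-0 and to 1 without replicate 2 of slr-1, and was 5 without either of the other arrays. In RNA from whole segments, fewer cells of a type and less RNA per cell cannot be told apart.

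The class III peroxidases, a large family of wall and apoplast enzymes, differed between the genotypes in both directions. Of 28 measured, 3 were higher and 3 lower, with a median of 0.06. The share called was 21.4%, against 6.89% over all 13505 probe sets. AT2G41480 (peroxidase 25) had 685 and 935 in Col-0 and 5084 and 5142 in slr-1 (2.65, SE 0.22, adjusted p = 3.27e-05), and AT1G71695 had 343 and 293 against 982 and 1064 (1.63, SE 0.19, adjusted p = 2.00e-04). Both calls held whichever 1 of the 4 arrays was left out. Both genes were already higher in slr-1 at 0 h, by 2.14 (adjusted p = 8.56e-05) and 0.70 (0.0243). Their changes since 0 h did not pass (adjusted p = 0.436 and 0.0746). The third higher gene was AT4G36430 (1.41, SE 0.32, adjusted p = 0.0164) and the third lower one AT5G66390 (-0.80, SE 0.19, adjusted p = 0.0248), both named after their values were seen. The call of AT4G36430 ended without replicate 1 of Col-0 (0.183) and without replicate 1 (0.0854) or 2 (0.0849) of slr-1. That of AT5G66390 ended without replicate 1 (0.215) or 2 (0.0576) of Col-0 or replicate 2 of slr-1 (0.246), without a variance trend (0.0621) and with only the arrays at 2 h (0.107). Without replicate 1 of Col-0 or replicate 2 of slr-1, 2 peroxidases were higher and 0 lower. Of the 3 lower ones, AT4G26010 and AT1G30870 also belong to the root hair list, and AT1G30870 (-2.46, SE 0.61, adjusted p = 0.0282) lost its call without replicate 1 of Col-0 (0.285), replicate 1 of slr-1 (0.152) or replicate 2 of slr-1 (0.0924), and without a variance trend (0.0648). Both passed the signal limit through Col-0 alone. At 0 h AT4G26010 differed by -2.76 (adjusted p = 0.0112) and AT1G30870 by -3.02 (0.0062). Without replicate 2 of slr-1 at 0 h these differences were -2.75 and -2.11, and the calls at 0 h ended.

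Of 12 measured photosynthesis genes encoded in the nucleus, 6 (50%) were lower in slr-1 at 2 h, against 6.89% called over all 13505 probe sets. None was higher, and the median of the 12 was -0.80. Before auxin 11 of them had been lower (median -0.98), and 9 without replicate 2 of slr-1 at 0 h. At 6 h of NAA 4 of the 12 were called higher in slr-1 and 0 lower (median 0.32). The list was completed by locus after the largest differences had been seen. PSAE-1 (AT4G28750), a subunit of photosystem I, had 1106 and 1158 in Col-0 and 443 and 512 in slr-1 (-1.22, SE 0.21, adjusted p = 0.0032). PSBW (AT2G30570), a subunit of photosystem II, had 2609 and 2005 against 1150 and 901 (-1.15, SE 0.19, adjusted p = 0.00269). Neither pair of groups overlapped, and both calls held whichever 1 of the 4 arrays was left out. RCA (AT2G39730), the Rubisco activase that served as the marker of green shoot, had 6070 and 4931 in Col-0 and 3169 and 2250 in slr-1 (-1.03, SE 0.19, adjusted p = 0.00492), a call that ended without replicate 1 of Col-0 (0.0752) or replicate 2 of slr-1 (0.0706). Summed over 13 genes, the signal was 23088 and 22208 in Col-0 and 13844 and 12754 in slr-1. Leaving out replicate 1 of Col-0 or replicate 2 of slr-1 left 2 genes called. The part of green tissue in these values was not tested.

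Sugar carriers of the SWEET family had 2 lower calls among 7 measured genes (28.6%) and none higher, against 6.89% called over all 13505 probe sets. SWEET11 (AT3G48740), a plasma membrane sucrose carrier of the phloem, had 2278 and 2758 in Col-0 and 712 and 401 in slr-1 (-2.19, SE 0.26, adjusted p = 3.14e-04). The deficit was already present at 0 h (-3.50, adjusted p = 1.72e-05) and did not pass at 6 h (-0.57, adjusted p = 0.109). The other call, SWEET16 (-0.65, SE 0.18, adjusted p = 0.0468), was marginal and ended in 17 of 24 alternative settings. It ended without replicate 1 (0.168) or 2 (0.22) of Col-0 or replicate 1 of slr-1 (0.343), and without any single Col-0 array of 0 h or 6 h, mock included, or slr-1 array of 6 h (0.054 to 0.0599). It also ended with no filter (0.0654), quantile normalization (0.0594), no variance trend (0.0694), only the arrays at 2 h (0.108), no mock arrays (0.0546) and a replicate block (0.0561).

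Few genes of protein synthesis passed at 2 h. Of 116 cytosolic ribosomal protein genes, 2 (1.72%) were lower and none was higher in slr-1, against 6.89% called over all 13505 probe sets. The median was -0.05, although 54 had been higher at 0 h (median 0.62) and the median at 6 h was -0.93. Without replicate 2 of slr-1 at 0 h, 10 were higher at 0 h (median 0.54). The 2 lower genes were AT5G59240 (-1.88, SE 0.36, adjusted p = 0.00704) and AT2G32220 (-1.06, SE 0.27, adjusted p = 0.0305). AT2G32220 was not called once any 1 of the 4 arrays was left out (0.23 and 0.0763 without replicates 1 and 2 of Col-0, 0.138 and 0.119 without those of slr-1), nor with no filter (0.0526), quantile normalization (0.0615) or no variance trend (0.0515), and AT5G59240 not without replicate 1 (0.0548) or 2 (0.0528) of Col-0 or replicate 2 of slr-1 (0.0778). Of 5 nucleolar and RNA polymerase I or III genes limma called 0, with 2 at an unadjusted p under 0.05 and a median of -0.14. The lowest of them was YAO, a nucleolar protein, at -0.65 (SE 0.19, adjusted p = 0.0601). YAO passed with a replicate block (0.0376) and without replicate 1 (0.0213) or 2 (0.0207) of slr-1 at 0 h. Of 8 cytochrome P450 genes limma also called 0, with 2 at an unadjusted p under 0.05.

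**Figure D4:**
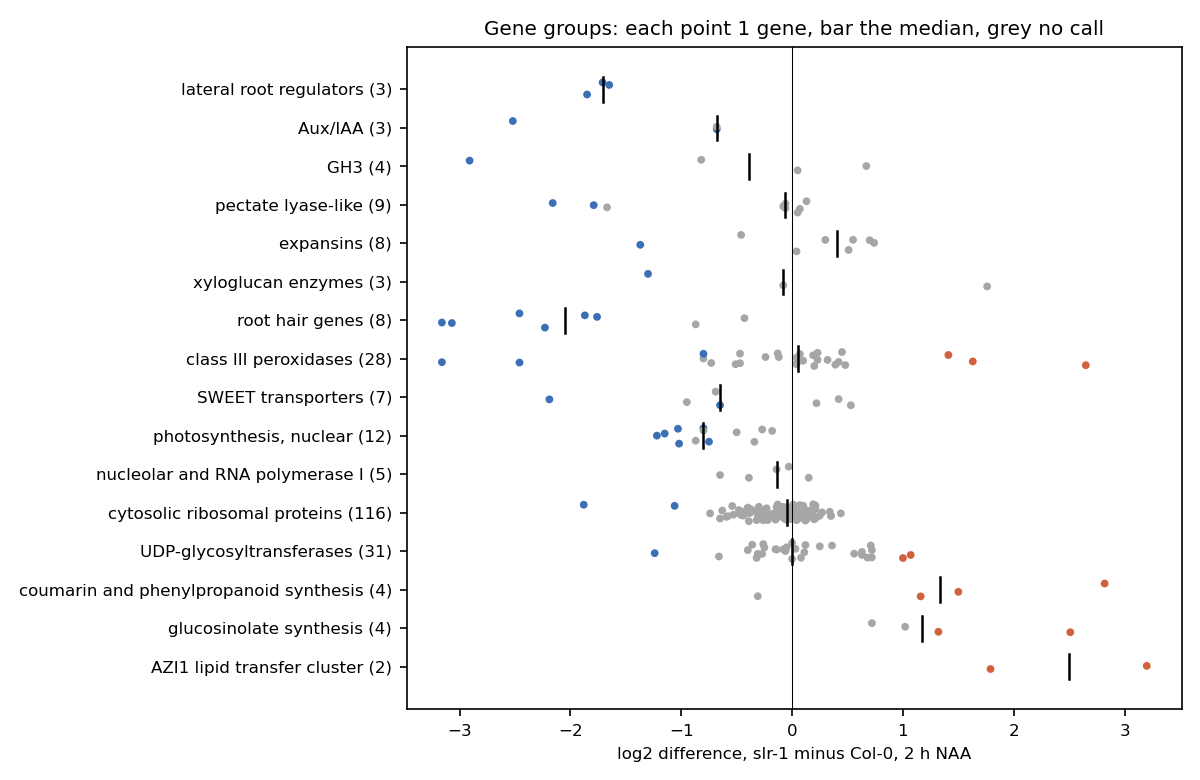
Log2 difference between slr-1 and Col-0 at 2 h of NAA (x axis) for each measured gene of 16 groups, with the number of genes in brackets and a black bar at the median. Blue genes were lower in slr-1, orange genes higher and grey genes not called; the root hair group has the lowest median, -2.05, and the ribosomal group lies around 0.

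In the other direction, the largest named excess in slr-1 was that of OCT1 (AT1G73220), an organic cation and carnitine transporter, at 13.3-fold. Its signals were 144 and 162 in Col-0, under the signal limit, and 2003 and 2566 in slr-1 (3.74, SE 0.42, adjusted p = 1.94e-04). At 0 h the difference had been 0.89 (adjusted p = 0.185), its change by 2 h passed (2.84, adjusted p = 0.0205), and at 6 h it was 7.72 (6.97e-08). AT3G20015 followed the same course, with 425 and 569 in Col-0 and 2184 and 2487 in slr-1 (2.20, SE 0.26, adjusted p = 2.62e-04) after 0.25 at 0 h (adjusted p = 0.571) and before 5.23 at 6 h (3.00e-08). Both calls at 2 h held whichever 1 of the 4 arrays was left out.

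Most other large excesses were present before auxin. AT4G12490, which belongs to a cluster of lipid transfer-type genes around AZI1, had 749 and 1059 in Col-0 and 7242 and 9627 in slr-1 (3.20, SE 0.37, adjusted p = 2.09e-04) after a difference of 4.08 at 0 h. Its neighbour in the cluster, AT4G12500, was also higher (1.79, SE 0.34, adjusted p = 0.0071), a call that ended without replicate 1 of Col-0 (0.0584) or replicate 1 of slr-1 (0.052). AT5G44400, of the berberine bridge enzyme-like oxidases, had 62.2 and 76.9 against 756 and 761 (3.14, SE 0.47, adjusted p = 0.00138) after 3.85 at 0 h. ATPMEPCRB (AT4G02330, pectin methylesterase 41), an enzyme that removes methyl groups from pectin, had 321 and 571 against 2071 and 2612 (2.39, SE 0.24, adjusted p = 1.06e-04) after 2.93. In these genes the slr-1 arrays were several-fold above Col-0 at either time. AT1G52700 (2.28, SE 0.38, adjusted p = 0.00269) and AT2G28780 (2.89, SE 0.33, adjusted p = 2.09e-04) were also called at 0 h (5.70e-04 and 0.00264). RALFL27 (AT3G29780), of the RALF family of signalling peptides, had 82.1 and 21.8 in Col-0 and 463 and 446 in slr-1 (2.88, SE 0.46, adjusted p = 0.002), and its difference at 0 h, 1.39, did not pass (0.0591). The Col-0 signals of AT5G44400, AT2G28780 and RALFL27 lay under the signal limit.

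A pair of groups of specialised metabolism were also higher in slr-1, on lists that were put together after the largest differences had been seen. Of 4 genes of coumarin and phenylpropanoid synthesis 3 (75%) were higher (median 1.33). Of 4 of glucosinolate synthesis 2 (50%) were (median 1.17), with none lower in either list. The share called over all 13505 probe sets was 6.89%. The coumarin count was 1 with 1 added to the signal, no filter, no variance trend, only the arrays at 2 h, or without any 1 of the NAA arrays at 6 h, and 2 with a replicate block, without the mock arrays or without any 1 of the mock or 0 h arrays. The glucosinolate count was 1 with no filter, no variance trend or without either slr-1 array at 6 h, and 3 with only the arrays at 2 h or without either NAA array of Col-0 at 6 h. Without replicate 1 of slr-1 at 2 h both counts were 1. AT3G12900, which encodes the scopoletin 8-hydroxylase of coumarin synthesis, had 372 and 2156 in Col-0 and 5986 and 6983 in slr-1 (2.82, SE 0.56, adjusted p = 0.00901). BCAT4 (AT3G19710), the aminotransferase that starts methionine chain elongation for glucosinolates, had 1803 and 1949 against 8210 and 14051 (2.51, SE 0.51, adjusted p = 0.00978). The arrays of the genotypes did not overlap, but replicate 1 of Col-0 lay far below replicate 2 for AT3G12900. The calls ended without replicate 1 of Col-0 (0.0532 for AT3G12900, 0.0822 for BCAT4) or replicate 2 of slr-1 (0.0708 and 0.0982), that of AT3G12900 also with only the arrays at 2 h (0.0502), and without either of these arrays none of the coumarin or glucosinolate genes was called. At 0 h AT3G12900 differed by 3.47 (adjusted p = 0.00158) and BCAT4 by 4.10 (3.08e-04). The list of iron acquisition had a share called of 33.3%, against 6.89% over all 13505 probe sets, and a median of -0.03. Its called gene passed the signal limit through slr-1 alone, which largely fixed the direction. Of 3 genes of iron acquisition, AT3G43630 was higher (2.09, SE 0.40, adjusted p = 0.00739), which ended without replicate 1 of Col-0 (0.0897) or replicate 2 of slr-1 (0.0864). Of 31 UDP-glycosyltransferases, 2 were higher and 1 was lower with a median of 0, a share of 9.68% against 6.89% over all 13505 probe sets from which nothing is read, and without replicate 1 of Col-0 the counts were 0 and 0.

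Over all probe sets, the differences at 2 h were in part those that existed before auxin. Across the 13505 probe sets, the log2 differences at 2 h and at 0 h, measured on separate arrays, had a Pearson correlation of 0.378, and those at 2 h and 6 h of 0.582, as a description across probe sets that share libraries. At 0 h, 1932 of the same probe sets (14.3%) were called, and at 6 h 4846 (35.9%). Of the 394 higher at 2 h, 204 were also higher at 0 h, which is 51.8% of the former and 21.5% of the 951 (7.04%) higher at 0 h. Of the 537 lower at 2 h, 173 were also lower at 0 h. That is 32.2% of the former and 17.6% of the 981 (7.26%) lower at 0 h. The opposite call was made at 0 h for 13 of the 394 and 36 of the 537, and at 6 h for 3 and 27. With or without a call, the sign at 0 h was the same for 84.5% of the 394 and 65.7% of the 537. At 6 h, 324 of the 394 were still called higher (82.2%, and 11.6% of the 2801 higher at 6 h, themselves 20.7% of all) and 332 of the 537 called lower (61.8%, and 16.2% of the 2045 lower at 6 h, 15.1% of all). Without replicate 2 of slr-1 at 0 h, 958 were called at 0 h, and 146 of the higher and 137 of the lower probe sets of 2 h were called the same way at 0 h.

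The genotype difference itself changed between 0 h and 2 h for 470 probe sets (3.48%), upward in slr-1 relative to Col-0 for 176 (1.3%) and downward for 294 (2.18%). Without replicate 2 of slr-1 at 0 h the counts were 278, 99 and 179. Among those called at 2 h, it changed for 151 of the 537 lower and for 56 of the 394 higher probe sets, and in 150 and 52 of these the change was in the direction of the call at 2 h. That test shares the arrays of 2 h with the call, so this direction is partly fixed by the choice. For 216 lower and 141 higher probe sets neither a call at 0 h in the same direction nor a change since 0 h passed. Among probe sets called at 0 h, 711 higher and 795 lower in slr-1 were not called at 2 h.

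**Figure D5:**
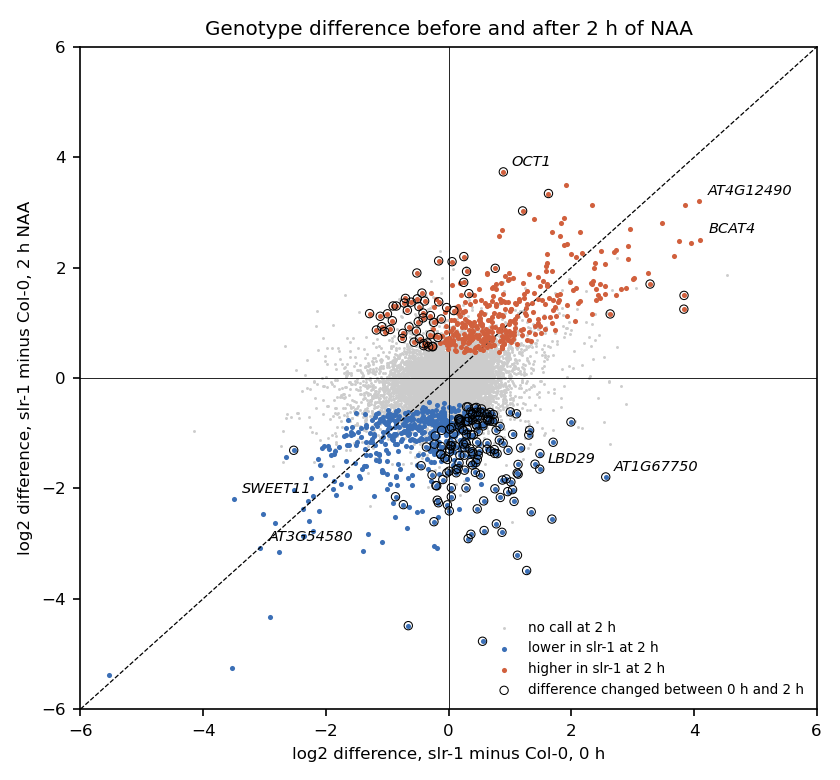
Log2 difference between slr-1 and Col-0 at 2 h of NAA (y axis) against that at 0 h (x axis), 1 point per probe set, with the line of equal differences dashed. Blue and orange points were called lower or higher in slr-1 at 2 h, and black rings mark called probe sets whose difference changed between the times, such as LBD29 and OCT1.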

How the data were processed

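The deposited values are 1 signal intensity per probe set and array, made by the authors with MAS5.0 per the series' design text. Settings and detection calls are not given in the sources used here. All per-sample columns were used. Of 22810 probe sets, 64 controls were left out, and 13513 of the rest had 1 gene in the annotation table.

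Signals were transformed as log2(signal + 18.9), the pooled 10th percentile, with no further normalization. One mean per group was fitted to all 14 arrays of 7 groups with limma 3.58.1 in R 4.3.3 (eBayes with a trend, 7 residual and 6.57 prior degrees of freedom) and p-values were adjusted by Benjamini-Hochberg over 14883 probe sets with both arrays of any group above the signal limit. The fit was tested on simulated data. An exact permutation test was not used, since the smallest two-sided p that 4 arrays allow it is 0.333.

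The probe sets and gene lists were chosen with earlier results of these data known. Lists by locus (ribosomal proteins, peroxidases, photosynthesis, root hairs, coumarins, iron, glucosinolates, AZI1 cluster, pectate lyases) were added after the largest differences were seen, with families assigned from general knowledge. Named were the lateral root, Aux/IAA and GH3 genes, the 15 highest and 15 lowest called genes with arrays apart, up to 4 called genes per list (2 by signal where none was called), the 8 largest shared with 0 h, the 8 largest changed since 0 h and the 5 with the highest signals. The text describes part of them. Alternatives were the added value, filter, normalization, variance trend, arrays fitted, a replicate block and leaving out each array.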

Additional observations from a re-analysis of the deposited data

Results flagged for a closer look

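The difference between slr-1 and Col-0 at 2 h was not the one at 0 h for 470 of the 13505 probe sets, by limma's test of the change (adjusted p under 0.05). Of these, 176 moved upward in slr-1 relative to Col-0 and 294 downward. The count ran from 157 to 830 when single arrays were left out, and was 278 without replicate 2 of slr-1 at 0 h, the array with the GAPDH ratio of 1.16. Among the named genes the change (log2 difference at 2 h minus that at 0 h) was -4.35 for the pectate lyase-like gene AT1G67750, -4.33 for AT1G21060, -3.34 for GH9B13, -3.23 for GH3.1, -3.14 for LBD29, -3.01 for the pectate lyase-like gene AT1G04680, -2.9 for the ribosomal protein gene AT5G59240, -2.73 for PUCHI, -2.37 for AT5G55050, -2.28 for AT5G04980, -2.15 for LBD16, -2.04 for XTH18 and -1.71 for IAA29. It was 2.84 for OCT1, 1.95 for AT3G20015 and 1.1 for GH3.17. IAA29 and GH3.17 were not called at 2 h itself. Without replicate 2 of slr-1 at 0 h the change no longer passed for AT1G21060 (adjusted p = 0.0609), XTH18 (0.0691), IAA29 (0.0688) and GH3.17 (0.125).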

How the results depend on the processing

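With 2 arrays per group, single arrays set the counts most. Leaving out 1 array at a time gave 294 to 1069 calls at 2 h in place of 931, with 113 to 440 higher and 181 to 630 lower, 839 to 2034 at 0 h in place of 1932, 2837 to 5128 at 6 h in place of 4846, and 157 to 830 for the change between 0 h and 2 h in place of 470. Without replicate 2 of Col-0 at 2 h, 51.4% of the calls were higher in slr-1, against 42.3% with all arrays and 36.2% to 44.6% under every other setting. The other settings gave 691 (no variance trend) to 1027 calls (adding 100) at 2 h, and every probe set called both ways kept its sign. Fitting only the arrays at 2 h gave 968 calls, 745 of them among the 931. Fitting only the groups of the comparison gave 1165 calls at 0 h, and the change since 0 h had 267 calls without a variance trend. Same-numbered arrays of Col-0 and slr-1 at 2 h did not deviate together (correlation 0.008), and over all pairs of groups that correlation was -0.221 to 0.136, so the numbers were not taken to pair the arrays. With a replicate block there were 902 calls at 2 h, 858 of them shared; among the named genes YAO passed with it (adjusted p = 0.0376), and the calls of SWEET16 (0.0561) and AT3G13610 (0.0619) ended. For signals under the signal limit the size of a difference depends on the value added before the logarithm.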

Other observations

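The largest deficits in slr-1 fell on probe sets with no gene in the annotation table, singled out after their values were seen. The lowest had signals of 2330 and 734 in Col-0 and 13.4 and 12.8 in slr-1 at 2 h (log2 difference -5.38, SE 0.69, adjusted p = 4.35e-04), and the next had 2315 and 1096 against 50.7 and 6.5 (-5.26, SE 0.55, adjusted p = 1.18e-04). The highest excess among probe sets with no gene lay below that of OCT1 (3.74). It had signals of 19.9 and 34.6 in Col-0 and 480 and 513 in slr-1 (3.5, SE 0.39, adjusted p = 1.88e-04). Each of these unnamed probe sets passed the signal limit through 1 genotype alone, so its direction was largely fixed by the filter. Their low signals lie near the added value, which compresses these differences.

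The dehydration genes COR47 and LTI30 were among the brightest transcripts in both genotypes and did not pass at 2 h. COR47 had 50373 and 48132 in Col-0 and 59725 and 56170 in slr-1 (0.23, SE 0.24, adjusted p = 0.677), and LTI30 had 43009 and 39210 against 42262 and 40525 (0.01, SE 0.21, adjusted p = 0.987). OSM34, an osmotin-like defence protein, was higher in slr-1, with 9966 and 11978 against 24917 and 20932 (1.06, SE 0.22, adjusted p = 0.01), a call that ended without replicate 1 of Col-0 (0.121) or of slr-1 (0.0819).

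Families of regulators and membrane proteins had 1 call each. That was 20% of 5 WRKY factors, 20% of 5 bHLH genes and 16.7% of 6 tetraspanins, against 6.89% over all 13505 probe sets. WRKY53, a stress and senescence regulator, was the called gene of 5 WRKY factors, lower in slr-1 (-1.40, SE 0.31, adjusted p = 0.0147). Its call ended whichever 1 of the 4 arrays was left out (0.116 and 0.104 without replicates 1 and 2 of Col-0, 0.0578 and 0.116 without those of slr-1). bHLH115, a factor of iron homeostasis, was higher (0.69, SE 0.14, adjusted p = 0.00839) as 1 of 5 bHLH genes, and the call ended without replicate 1 of Col-0 (0.0997) or replicate 2 of slr-1 (0.0924). TET3, 1 of 6 tetraspanins, was higher (0.51, SE 0.13, adjusted p = 0.0349) with all arrays and in none of the fits that left out 1 of the 4 arrays at 2 h (0.278 and 0.0686 without replicates 1 and 2 of Col-0, 0.197 and 0.0998 without those of slr-1). The call of TET3 also ended without either NAA array of Col-0 at 6 h (0.0522 for each), without a variance trend (0.0726) and with only the arrays at 2 h (0.0671).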
